A study of Mus musculus with 12 samples.

Results

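The genes followed here belong to the unfolded protein and ATF4 stress response, measured in cultured mouse microglia: Atf4, Ddit3, Xbp1, Trib3, Asns, Chac1, Sesn2, Hspa5, Herpud1 and Dnajb9. They were chosen by symbol with earlier results of these data known, so the shares set beside all genes below are descriptive. All 10 were found among the 14541 genes of the deposited expression table. All 10 passed the filter on low values, which 11242 genes passed. Microglia, the macrophages that live in the brain, were pulled with CD11b beads from forebrains of wild-type pups at postnatal day 7 to 9 and plated at 40000 to 80000 cells per well. Each group has 4 libraries, numbered 1 to 4. The Hevin group came from cells given 500 nM recombinant Hevin, a protein that astrocytes secrete. The LPS group came from cells given 50 ng/mL LPS, a bacterial cell wall component sensed by Toll-like receptor 4, and the Media group from cells given an equal volume of medium. All cells were collected 6 h after the addition. CD11b is also carried by other myeloid cells, and the labels do not say how many pups a library came from, or whether the libraries of a group were separate cultures, so a p-value here reflects how much the libraries vary, which may be technical.

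The unfolded protein response starts when badly folded proteins gather in the endoplasmic reticulum (ER). Its sensors IRE1, ATF6 and PERK raise ER chaperones, send proteins out of the ER for degradation and lower protein synthesis. PERK phosphorylates the translation factor eIF2α, as do other kinases that sense amino acid shortage, viral RNA or heme loss, and translation of the transcription factor ATF4 then goes up. ATF4 drives genes for amino acid uptake and synthesis, transfer RNA charging and redox balance, and it drives DDIT3 (CHOP), a factor linked to cell death under long stress. These arms act in large part on translation, phosphorylation or RNA splicing, which messenger RNA levels do not show.

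**Figure D1:**
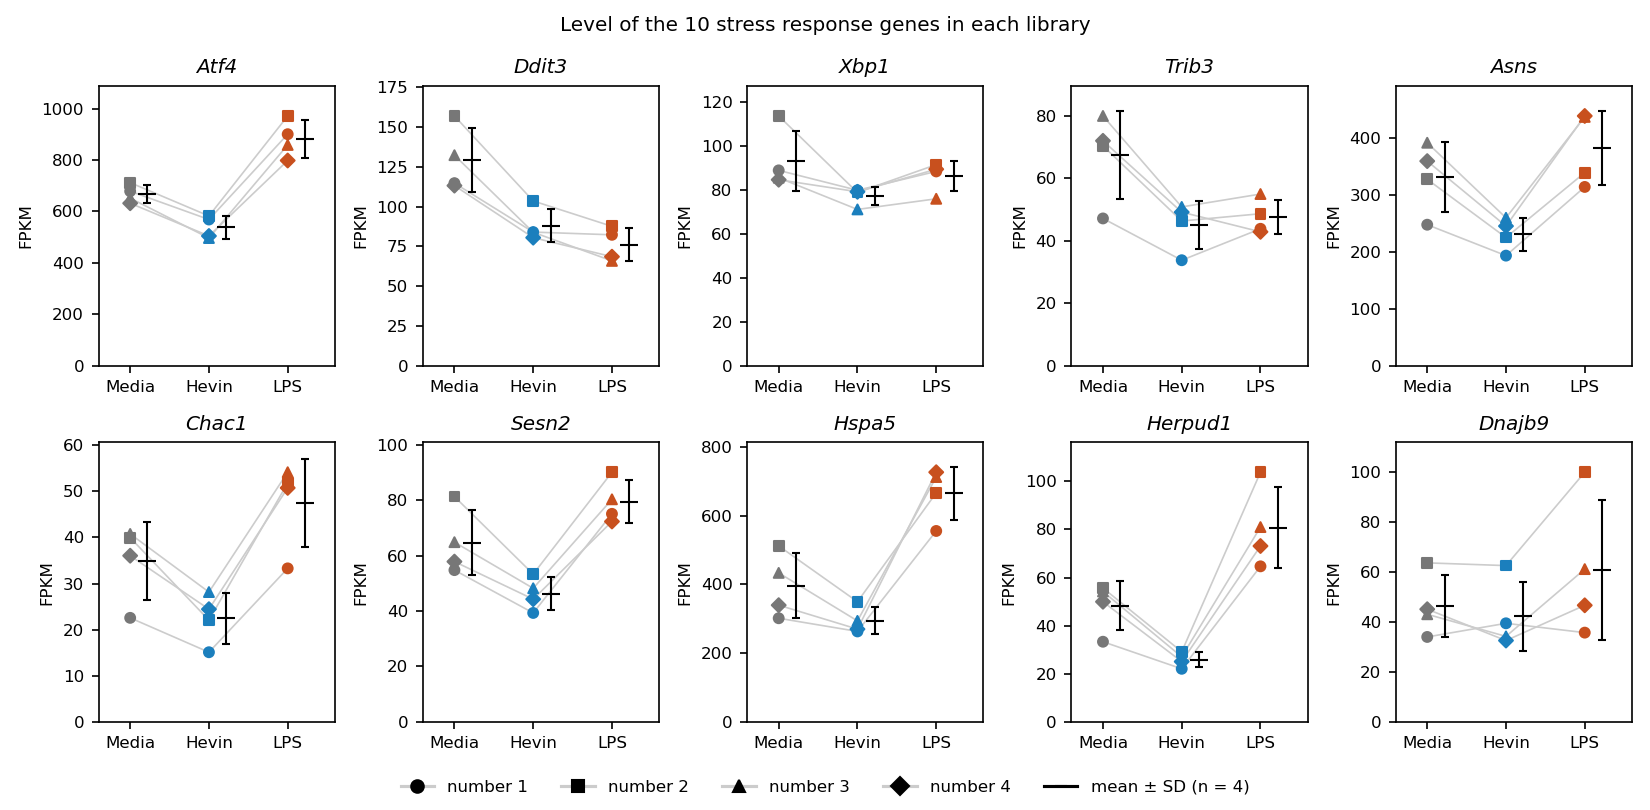
FPKM of the 10 genes (y axes, linear from 0) in each of the 12 libraries, with groups on the x axes; marker shapes and grey lines join libraries of the same number, and black bars give the mean ± SD (n = 4). Herpud1 libraries do not overlap between any 2 groups, and the line of each number goes down from Media to Hevin for all genes but Dnajb9, where number 1 goes up.

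Among the 10 genes, Hspa5, Herpud1, Asns and Chac1 hold, just upstream of their start, the letters of a known stress response element. These stretches are shown because each element is known as a binding place of stress response transcription factors, without marking a single arm. They come from the RefSeq promoter table for GRCm38.p6, which matched all 10 genes. The 250 bases before the start were searched on both strands, and 32851 promoter windows of the same length gave the background. The ER stress response element ERSE (CCAAT, then any 9 bases, then CCACG), bound by ATF6 with NF-Y, was found in 0.113% of all windows and, of the 10 genes, in Hspa5. The related ERSE-II (ATTGG, any base, then CCACG) was found in 0.0304% of windows and in Herpud1. The CARE element (TGATGNAA), bound by ATF4 with C/EBP factors, was found in 3.45% of windows and in 3 of the 10 genes, Asns, Chac1 and Herpud1. The UPRE (TGACGTGG), bound by XBP1, was found in 0.563% of windows and in 0 of the 10. The motifs did not overlap each other in these genes. The Hspa5 and Asns stretches lie before the RefSeq start but inside the longer gene span that GENCODE gives. Capitals mark the motif, each stretch is written along its gene's own strand, and a motif on the other strand appears as its reverse complement. A match describes letters only and does not show binding here.
Hspa5, chr2:34772020-34772048, plus strand, with ERSE: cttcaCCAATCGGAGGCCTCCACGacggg
Herpud1, chr8:94386302-94386428, plus strand, with CARE on the other strand and then ERSE-II: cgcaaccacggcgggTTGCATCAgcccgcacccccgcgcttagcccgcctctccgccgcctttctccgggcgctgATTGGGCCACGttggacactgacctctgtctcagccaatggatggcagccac
Asns, chr6:7693214-7693243, minus strand, with CARE: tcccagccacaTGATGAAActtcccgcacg
Chac1, chr2:119351034-119351228, plus strand, with CARE on the other strand: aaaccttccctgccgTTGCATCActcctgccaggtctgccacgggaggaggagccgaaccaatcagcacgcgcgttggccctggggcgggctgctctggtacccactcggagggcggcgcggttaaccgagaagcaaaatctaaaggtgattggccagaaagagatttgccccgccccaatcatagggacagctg

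Depth, from reads recovered out of the FPKM values, was 18343996 to 27361665 per library, and each of the 10 genes had at least 659 reads in every library. Precision is therefore set by the spread between libraries and not by read counting. Libraries of the same number resembled each other across groups, and those of numbers 3 and 4 also resembled one another. A fit with the number as a block was therefore also made and is quoted where it changes a call. The 3 libraries of number 2 stood apart by neutrophil markers (S100a8, S100a9, Mpo, Elane, Camp). These summed to 1551 to 1633 FPKM there, at like levels in all 3 groups, against at most 93.9 in the other 9. Results without number 2 are given for some of the counts below, and not for all. Between groups the summed level of 10 microglia-defining genes was 1432 to 2014 FPKM in the Hevin libraries, above the 834 to 1086 of Media and the 723 to 1026 of LPS. The list of 6 border macrophage genes summed to 808 to 939 FPKM with Media alone, 612 to 814 after Hevin and 684 to 852 after LPS. Pf4 made up 66.7% of that sum, and single genes went both ways after Hevin, with Mrc1 at a mean of 71.7 FPKM against 161 with Media alone and Ms4a7 at 39.1 against 20.5. The astrocyte list (7 genes) was lowest after Hevin (20.8 to 44.2 FPKM, against 49.8 to 85.3 with Media alone) and highest after LPS (112 to 234), with 93.6% of it from Gja1, while Gfap was at most 1.97 FPKM and Aqp4 at most 1.35. The oligodendrocyte lineage list reached 15.6 FPKM in Media, 39.0 in Hevin and 10.3 in LPS, and 43.0% of it over all libraries was Cspg4. Neuronal genes summed to at most 16.8 FPKM, endothelial genes to 27.3 to 162 FPKM with like ranges in all groups, and of the lymphocyte list only Cd79a was listed, at up to 1.19 FPKM. In these bulk libraries fewer cells of a type and less RNA per cell cannot be told apart, and the part of these markers in the results below was not tested.

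Per gene length, the level of the 10 genes in Media ran from Atf4 at 669 ± 34.8 FPKM (SD, n = 4) to Chac1 at 34.8 ± 8.44. Atf4, the response's central transcription factor, stood above 99.8% of listed genes. Hspa5 (396 ± 94.7) and Asns (332 ± 61.8) came next and did not differ beyond their spread. Ddit3 (129 ± 20.4) and Xbp1 (93.0 ± 13.8) followed. Trib3 (67.4 ± 14.1) and Sesn2 (64.7 ± 11.9) were alike within their spread, as were Herpud1 (48.3 ± 10.3) and Dnajb9 (46.4 ± 12.4). Chac1, the lowest of the 10, still stood above 86.9% of listed genes.

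The first comparison asked what the astrocyte protein Hevin does to these genes. All 10 had lower means in Hevin than in Media, and at an adjusted p under 0.05 (limma, two-sided, adjusted over all 11242 genes) 3 fell: Herpud1, Ddit3 and Atf4. None rose (0 also at an unadjusted p under 0.05, and 0 with voom on recovered reads, a count-based form of the fit), while 9 were lower at an unadjusted p under 0.05. Of all 11242 genes tested, 3.1% were lower and 4.27% higher at the adjusted threshold. At an unadjusted p under 0.05 (limma), 1105 of them were lower and 1198 higher. With the replicate number as a block 9 of 10 fell, all but Dnajb9, against 10.6% of all genes lower and 10.8% higher. The members' median log2 fold change was -0.49, against 0.00020 over all genes tested, and the direction was lower in all 4 numbers for 9 genes. In 5 genes (Atf4, Ddit3, Xbp1, Sesn2, Herpud1) every Hevin library lay below every Media library, which 7.55% of all genes showed, and in 0 genes did every Hevin library lie above, as 9.05% of all genes did. Leaving out the 3 libraries of number 2, Herpud1 and Ddit3 fell without the block. With the block 8 then fell (Xbp1 had a limma adjusted p of 0.138), beside 964 lower and 977 higher of all genes tested.

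Of the transcription factors Atf4 and Ddit3 fell, and Xbp1 did not pass. Atf4 stood at 679, 712, 652 and 632 FPKM in Media 1 to 4 and at 569, 582, 496 and 504 in Hevin 1 to 4. Every Hevin library was below every Media library, and the ratio within a number ran from 0.762 to 0.838. This gave a log2 fold change of -0.32 ± 0.09 (SE), with an adjusted p of 0.0492. The call was lost without number 2 (adjusted p = 0.0732), with no filter, quantile normalization, no trend or voom without the block, and without any 1 of the Hevin or Media libraries or of LPS 1 and LPS 3 (adjusted p up to 0.145), and it was 0.00218 with the block.

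Ddit3, the gene of CHOP, went from 115, 157, 132 and 113 FPKM in Media to 84.0, 104, 83.9 and 80.4 in Hevin. The groups did not overlap, and number 2 was highest in both. In the fit it changed by -0.54 ± 0.13 on the log2 scale (adjusted p = 0.0251, and 0.000533 with the block). The call ended without Hevin 1, Hevin 3, Hevin 4, Media 2 or Media 3 (adjusted p up to 0.0801). Ddit3 shares 68 of its 1713 exonic bases with Mars on the opposite strand and 105 with a second annotated Ddit3 record, and whether reads were assigned by strand is not given in the sources used here.

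Xbp1 encodes the factor made active when IRE1 splices its RNA, and the gene-level value does not separate the spliced form. It stood at 88.8, 113, 85.4 and 84.5 FPKM in Media and 79.7, 78.7, 71.0 and 79.0 in Hevin. The groups did not overlap, but Media 2 lay far above the other controls. The log2 fold change of -0.26 ± 0.10 did not pass the test (adjusted p = 0.172), and with the block it passed at 0.0308.

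The ATF4 targets Trib3, Asns, Chac1 and Sesn2 all had lower means in Hevin. None of the 4 passed in the fit of all libraries without the block, and all 4 passed with it. Trib3, a pseudokinase that feeds back on ATF4, stood at 47.2, 70.4, 80.0 and 72.1 FPKM in Media and 33.8, 46.4, 50.9 and 49.2 in Hevin. Number 1 was lowest in both groups, and Media 1 overlapped the Hevin range. Its log2 fold change was -0.56 ± 0.17 (adjusted p = 0.0698, and 0.00152 with the block).

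Asns, the asparagine synthetase gene shown above with its CARE letters, had 248, 328, 392 and 359.7 FPKM in Media and 193, 225, 260.0 and 245 in Hevin. Again number 1 was lowest in both, and Hevin 3 lay above Media 1. The fitted difference was -0.51 ± 0.16 (adjusted p = 0.0805, and 0.00028 with the block). Chac1, which degrades glutathione, had 22.6, 40.0, 40.8 and 36.0 FPKM in Media and 15.1, 22.1, 28.2 and 24.4 in Hevin. The ratio to the Media library of the same number ran from 0.552 to 0.691, although Hevin 3 and Hevin 4 lay above Media 1. For Chac1 the fitted difference was -0.61 ± 0.23 (adjusted p = 0.140, and 0.000119 with the block).

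Sesn2, which restrains the growth kinase mTORC1 when leucine is short, had 54.8, 81.3, 64.8 and 57.8 FPKM in Media and 39.3, 53.3, 48.2 and 44.3 in Hevin. Each Hevin library lay below each Media library. With a log2 fold change of -0.47 ± 0.13 it missed the threshold narrowly (adjusted p = 0.0532) and passed with the block (0.000445). Without Media 1 the calls rose to 6 of 10, since Trib3, Asns, Chac1 and Sesn2 then passed and Atf4 did not. Over the fits without 1 library, 203 to 390 of all genes tested were lower. Sesn2 also passed without Hevin 2 or LPS 2, and with only genes of at least 5 FPKM in 4 libraries tested (adjusted p = 0.0464).

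Among the ER genes Herpud1 moved most. It helps to send misfolded proteins from the ER to degradation, and its promoter stretch above held both ERSE-II and CARE letters. It stood at 33.3, 55.6, 54.2 and 49.9 FPKM in Media and at 22.1, 29.1, 27.1 and 25.1 in Hevin. All Hevin libraries lay below Media 1, the lowest control. The mean fell to 0.535 of Media, a log2 fold change of -0.86 ± 0.18 (adjusted p = 0.0106), and this call held in all 27 alternatives, with adjusted p from 3.11e-06 to 0.0398.

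Hspa5 encodes BiP, the main ER chaperone of the response, and carried the ERSE letters. It had 301, 512, 433 and 339 FPKM in Media and 263, 349, 294 and 269.8 in Hevin. Hevin 2 lay above Media 1 and Media 4, so the groups overlapped. For Hspa5 the fitted difference was -0.41 ± 0.16 (adjusted p = 0.168, and 0.0159 with the block). Dnajb9, a BiP cochaperone induced through XBP1, had 33.97, 63.6, 43.0 and 45.1 FPKM in Media and 39.4, 62.5, 34.2 and 32.5 in Hevin. Number 1 went up and the others down. Its difference of -0.15 ± 0.30 had a 95% confidence interval from -0.80 to 0.50 and did not pass with the block either (adjusted p = 0.492).

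**Figure D2:**
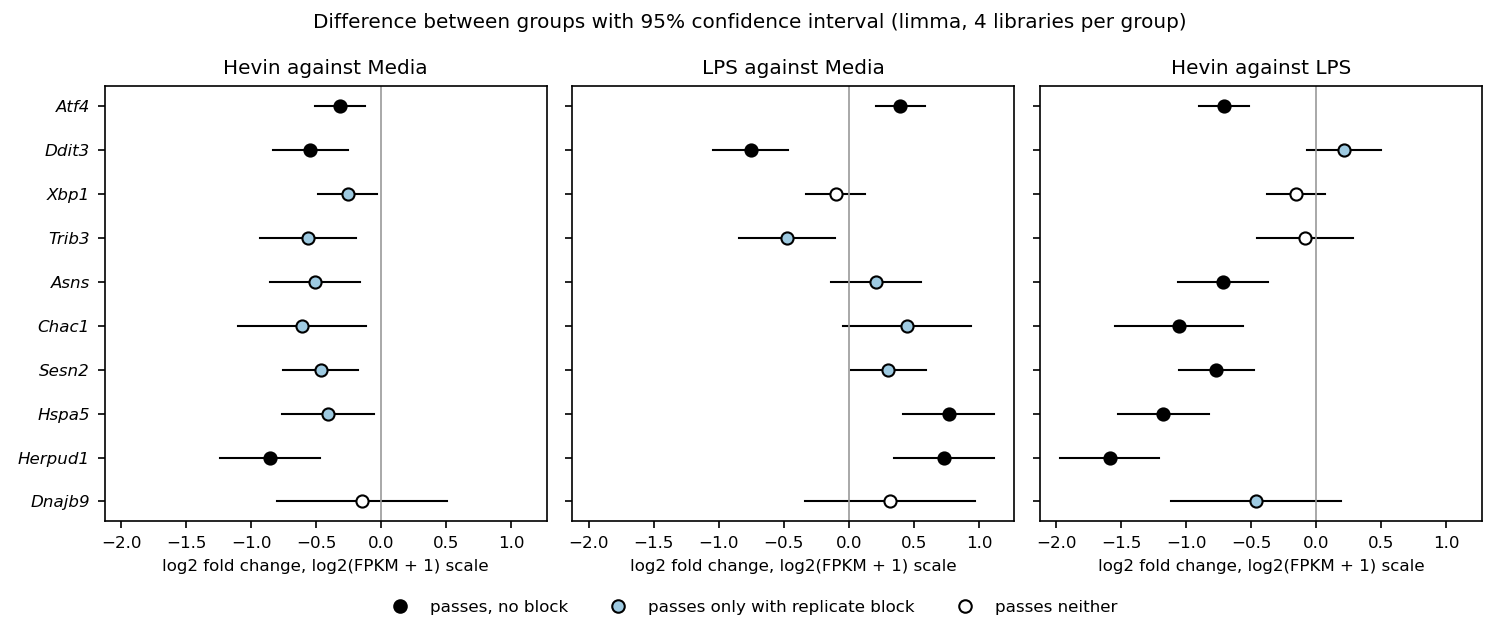
Log2 fold change of the 10 genes (x axes, log2(FPKM + 1) scale) with 95% confidence intervals from limma without the block, for the 3 comparisons of 4 libraries per group; fill gives whether the call passes without the block, only with it, or in neither. All 10 estimates for Hevin against Media are below 0, whereas LPS against Media has 7 above and 3 below 0; under no scaling factors or quantile normalization the LPS estimates shift down, and Atf4, Asns, Sesn2 or Dnajb9 then change sign.

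The second comparison asked what LPS does. On the deposited scale LPS split the response: Hspa5, Herpud1 and Atf4 were called higher, Ddit3 was called lower, and 6 did not pass, against 13.2% of all genes higher and 12.6% lower. In these 4 genes the LPS and Media libraries did not overlap, which 13.3% of all genes showed in the higher and 12.3% in the lower direction. The median log2 fold change of the 10 was 0.31, against -0.024 over all genes tested. These higher calls depend on how libraries were scaled. With upper quartile scaling they held (limma adjusted p = 0.00675 for Atf4, 0.0131 for Hspa5 and 0.0237 for Herpud1), and Ddit3 stayed lower. In that fit 1302 of all genes tested were higher and 2027 lower. Under the scalings that follow the higher calls were lost. The deposited values use scaling factors of 0.804 to 0.897 in LPS and 1.02 to 1.16 in the other groups, which raises LPS values. With the factors left out the median log2 fold change of all genes shifted by -0.27 (728 genes higher and 5007 lower, against 1484 and 1413), and then 0 of the 10 were higher and 3 lower (Ddit3, Xbp1, Trib3). With quantile normalization 0 were higher and 4 lower (the same 3 and Atf4), beside 1118 and 1664 of all genes tested. With the block on the deposited scale 6 were higher (adding Asns, Chac1 and Sesn2) and 2 lower (adding Trib3), against 21.5% and 22.2% of all genes. With the block and no factors 2 were higher (Hspa5, Herpud1) and 3 lower, beside 1075 and 6361 of all genes tested. Without number 2 the counts were 4 higher (adding Sesn2, adjusted p = 0.0361) and 1 lower, beside 1411 and 1156 of all genes tested. With the block they were 6 and 2, beside 2245 and 2306.

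Hspa5 had 555, 666, 712 and 726 FPKM in LPS 1 to 4, all above the highest Media library (512). Its log2 fold change was 0.77 ± 0.16 (adjusted p = 0.0046), and it stayed positive at 0.44 without scaling factors (adjusted p = 0.0576) and 0.15 with quantile normalization (adjusted p = 0.548). The ratio within a number ran from 1.30 to 2.14, lowest in number 2.

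Herpud1 had 64.6, 104, 80.9 and 73.1 FPKM in LPS, all above the Media range of 33.3 to 55.6. The fitted difference was 0.73 ± 0.18 (adjusted p = 0.00944), 0.41 without scaling factors (adjusted p = 0.106) and 0.45 with quantile normalization (adjusted p = 0.120). Atf4 had 900.4, 971, 859 and 798 FPKM in LPS, above the Media range of 632 to 712. Its log2 fold change was 0.40 ± 0.09 (adjusted p = 0.00596), but 0.068 without scaling factors (adjusted p = 0.485) and -0.34 with quantile normalization (adjusted p = 0.00635), so its direction turned with the scaling. Read against the median of all genes, the values without factors were 0.73 for Hspa5, 0.71 for Herpud1 and 0.36 for Atf4. Subtracting the median takes out most of the shift made by the factors. The values therefore lie near the deposited ones read the same way (0.79, 0.76 and 0.42). With quantile normalization they were 0.21, 0.50 and -0.28.

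Ddit3 went the other way. It had 82.3, 87.6, 65.8 and 68.5 FPKM in LPS, all below the lowest Media library (113). It fell by 0.76 ± 0.13 on the log2 scale (adjusted p = 0.00141), with values of -1.08 without scaling factors and -1.09 with quantile normalization (limma adjusted p at most 0.00614 over all alternatives). Trib3, the feedback pseudokinase, had 43.9, 48.7, 55.0 and 42.9 FPKM in LPS. Each was below the Media library of its number, at 0.595 to 0.930 of it, while the ranges overlapped at Media 1. Its log2 fold change was -0.47 ± 0.17 (adjusted p = 0.0579, and 0.00189 with the block), and it passed also without Media 1 or Hevin 1.

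The amino acid and redox targets lay above their Media library in every number on the deposited scale. Chac1 had 33.3, 51.8, 54.2 and 50.8 FPKM (log2 fold change 0.45 ± 0.23, adjusted p = 0.172, and 0.000372 with the block, but 0.13 without scaling factors). Sesn2 had 75.1, 90.1, 80.3 and 72.3 FPKM (0.30 ± 0.13, adjusted p = 0.113, and 0.00288 with the block, but -0.021 without scaling factors), and it passed without Media 2. Asns had 314, 339, 437 and 439 FPKM (0.21 ± 0.16, adjusted p = 0.373, and 0.0228 with the block, but -0.12 without scaling factors and -0.28 with quantile normalization). So the block adds these 3 genes and a change of scaling takes them away or turns 2 of them.

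Xbp1 and Dnajb9 did not pass in either fit. Xbp1 had 88.3, 91.4, 75.8 and 89.3 FPKM in LPS, within or near the Media range of 84.5 to 113 (-0.10 ± 0.10, adjusted p = 0.517), but it fell by 0.43 on the log2 scale without scaling factors (adjusted p = 0.00248). Dnajb9 spread most, with 35.7, 99.8, 61.1 and 46.6 FPKM in LPS. Number 2 was highest in each group for this gene, and the difference of 0.31 ± 0.30 (adjusted p = 0.491) was -0.0084 without scaling factors.

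**Figure D3:**
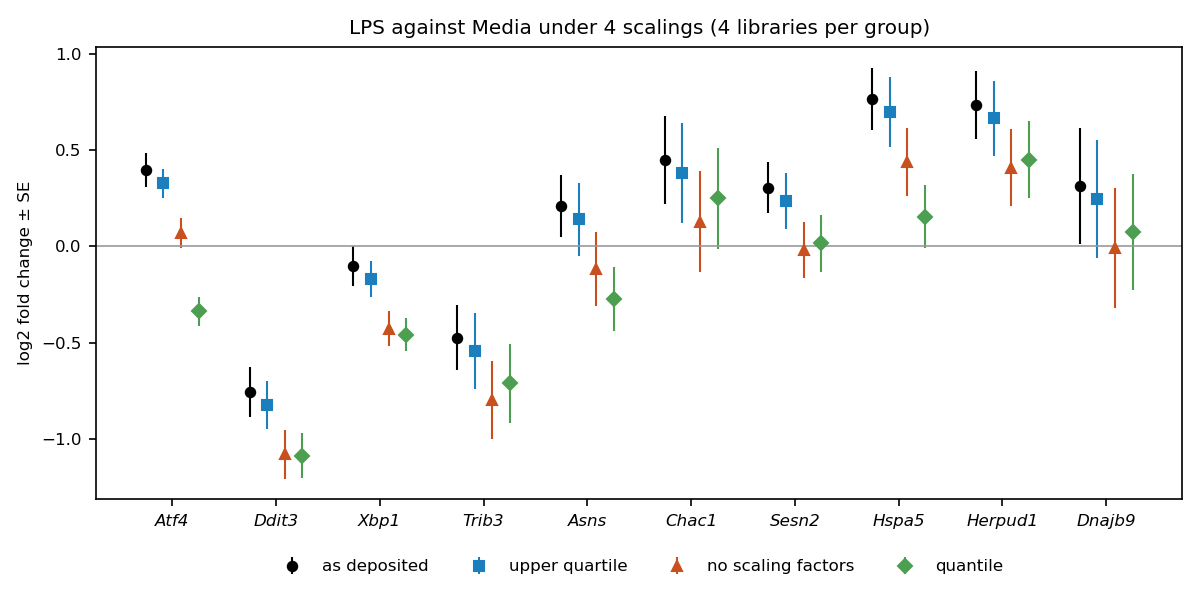
Log2 fold change ± SE (y axis) of the 10 genes (x axis) for LPS against Media, 4 libraries per group, under 4 scalings: as deposited, upper quartile, no scaling factors and quantile normalization. Ddit3, Trib3 and Xbp1 lie below 0 and Hspa5, Herpud1 and Chac1 above 0 under all 4, whereas Atf4 goes from 0.40 to -0.34.

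The third comparison set both treatments side by side. In Hevin 6 of the 10 genes were lower than in LPS and 0 higher (0 also at an unadjusted p under 0.05 and with voom), against 19.7% of all genes lower and 22% higher, and in these 6 no Hevin library reached an LPS library, which 17.5% of all genes showed. Herpud1 differed most, at 25.8 ± 3.01 FPKM against 80.6 ± 16.8 (log2 fold change -1.59 ± 0.18, adjusted p = 2.44e-05). Hspa5 stood at 294 ± 39.2 against 665 ± 77.4 (-1.18 ± 0.16, adjusted p = 0.000134). Chac1 stood at 22.4 ± 5.49 against 47.5 ± 9.58 (-1.06 ± 0.23, adjusted p = 0.00296). These 3 were also lower in Hevin without scaling factors and with quantile normalization, and no alternative gave an adjusted p above 0.0360.

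Sesn2 (-0.77 ± 0.13, adjusted p = 0.000677) was lower under every alternative too. Asns (-0.72 ± 0.16, adjusted p = 0.00368) lost its call without scaling factors (-0.36, adjusted p = 0.132) and with quantile normalization (-0.15, adjusted p = 0.507). Atf4 (-0.71 ± 0.09, adjusted p = 5.74e-05) was at 0.081 with quantile normalization (adjusted p = 0.433). With the block 7 were lower, adding Dnajb9 (adjusted p = 0.0146), and 1 higher, Ddit3 at 87.9 ± 10.5 against 76.0 ± 10.5 FPKM (0.21 ± 0.13, adjusted p = 0.222 without the block and 0.0350 with it), against 28% and 29.9% of all genes. Without the block Ddit3 was also called higher in Hevin with quantile normalization (0.57, adjusted p = 0.00222) and without scaling factors (0.56, adjusted p = 0.00242). Without number 2 and with the block 6 were lower and 0 higher, beside 2953 and 3152 of all genes tested. Xbp1 and Trib3 passed in neither fit. Without scaling factors they lay above 0 (0.20 and 0.26), and with the block added they passed as higher in Hevin (adjusted p = 0.0279 and 0.0296).

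Around the 10 genes, 4 lists of other pathway genes were described. These lists too were chosen with earlier results of these data known, so their shares beside all genes are descriptive. The amino acid and redox genes of the ATF4 pathway had more genes called lower in Hevin than the other 3 lists. Of 33 listed, 31 were tested; 14 fell against Media (45.2%, beside 3.1% of all genes), and 0 rose (0 also at an unadjusted p under 0.05 and with voom; 4.27% of all genes). All 31 had a negative log2 fold change, with a median of -0.36, against 5617 of 11242 genes negative overall. The glutamine transporter gene Slc1a5 fell from 24.1 ± 2.53 to 10.5 ± 0.839 FPKM (log2 fold change -1.12 ± 0.14, adjusted p = 0.000475). Slc7a5, which encodes a leucine transporter, fell from 94.98 ± 8.26 to 60.5 ± 4.78 (-0.64 ± 0.11, adjusted p = 0.00386). Eprs, a transfer RNA synthetase gene, fell from 194 ± 24.0 to 135 ± 17.2 (-0.52 ± 0.14, adjusted p = 0.0393), a call lost without number 2 or without Hevin 1, Hevin 3, Hevin 4, Media 1, Media 2, Media 3 or LPS 4 (adjusted p up to 0.116).

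The count moved with the fit and with single libraries. With the block it was 22 (71.0%, beside 10.6% of all genes), and 20 with the block and without number 2. Without the block it was 6 without number 2 and 9 under quantile normalization or no scaling factors. It was 4 to 9 without Media 2, Media 3, Media 4, Hevin 1, Hevin 3 or Hevin 4, the lowest without Media 3. Lower calls over all genes tested moved too, from 349 to between 203 and 390 with 1 library left out. The lowest of these was also without Media 3. In LPS the same list was split, with 3 higher (9.68%, beside 13.2% of all genes) and 2 lower (6.45%, beside 12.6%), and a median of 0.0032. With the block 7 were higher and 5 lower (22.6% and 16.1%, beside 21.5% and 22.2% of all genes). Slc7a11, the cystine importer gene, rose from 224 ± 32.1 to 607 ± 44.8 FPKM (1.44 ± 0.13, adjusted p = 1.26e-05), and stayed higher under all scalings. Slc3a2, its partner chain, was higher as deposited (0.29 ± 0.07, adjusted p = 0.0114) but at -0.042 without scaling factors and -0.48 with quantile normalization. Mthfd2, a mitochondrial folate enzyme gene, was higher as deposited (0.36 ± 0.09, adjusted p = 0.0145) but at 0.034 and -0.083 under those scalings. Pck2 (-0.72 ± 0.08, adjusted p = 6.81e-05) and the glycine transporter gene Slc6a9 (-0.62 ± 0.12, adjusted p = 0.00216) fell. Without scaling factors 1 was higher and 14 lower, beside 728 and 5007 of all genes tested. With quantile normalization 1 was higher and 12 lower, beside 1118 and 1664 of all genes tested. Against LPS, 21 of the 31 were lower in Hevin (67.7%, beside 19.7% of all genes) and 2 higher (6.45%, beside 22%). Without scaling factors 4 were lower and 3 higher, beside 963 and 5440 of all genes tested. With quantile normalization 5 were lower and 5 higher, beside 1741 and 2439.

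**Figure D4:**
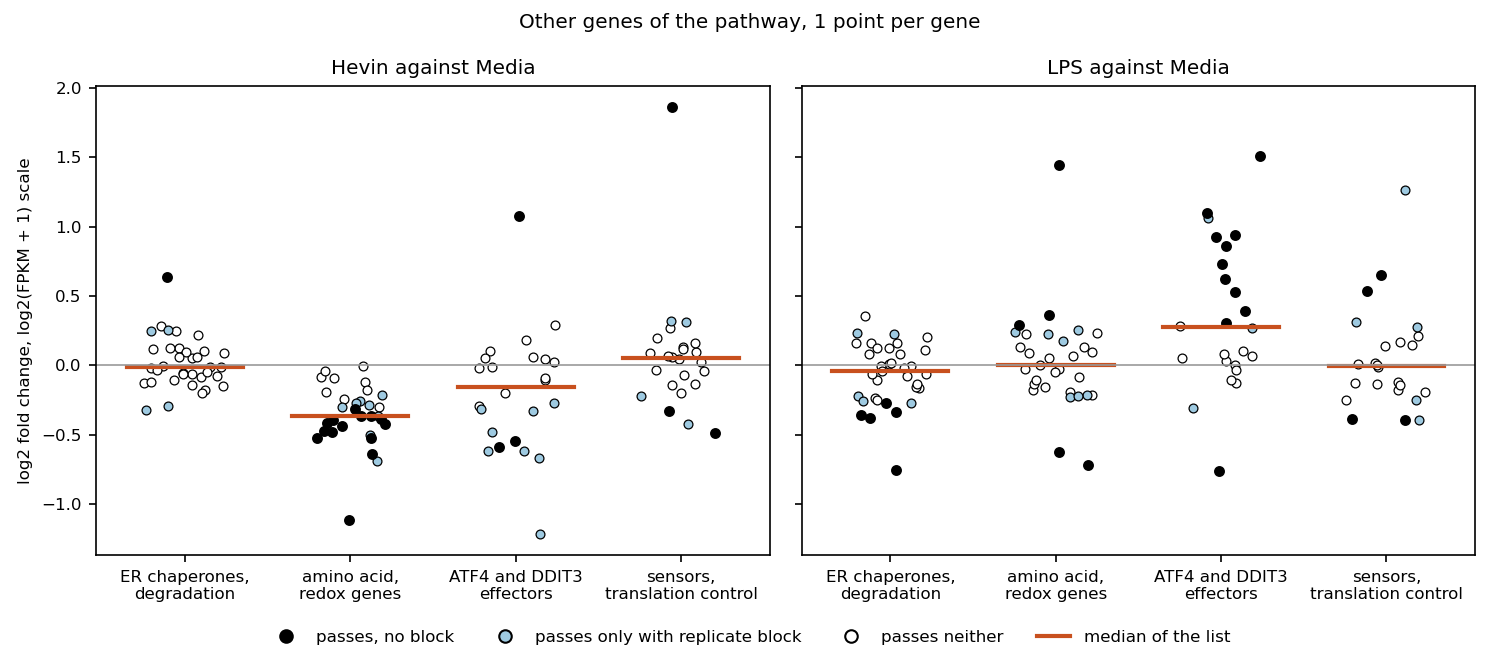
Log2 fold change (y axis, log2(FPKM + 1) scale) of the other pathway genes, 1 point per gene tested, in 4 lists (x axis) for Hevin and for LPS against Media; fill gives the call without or only with the block, and the orange line is the median of the list. In Hevin the 31 amino acid and redox genes all lie below 0 with a median of -0.36, and the 35 ER chaperone and degradation genes lie around 0 with a median of -0.013; the LPS values shift down under no scaling factors or quantile normalization.

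The ER chaperone and degradation genes, targets of XBP1 and ATF6, were called in Hevin at shares near or below those of all genes. Of 36 listed, 35 were tested. In Hevin 1 rose (2.86%, beside 4.27% of all genes) and 0 fell (beside 3.1%). At an unadjusted p under 0.05, 2 were lower, and 0 fell with voom. With the block 3 rose and 2 fell (8.57% and 5.71%, beside 10.8% and 10.6% of all genes). The gene that rose without the block, Edem2, helps to pick misfolded glycoproteins for degradation. It went from 7.62 ± 1.43 to 12.3 ± 1.66 FPKM (0.63 ± 0.15, limma adjusted p = 0.0201). This call was lost without number 2 or without Hevin 1, Hevin 2, Hevin 4, Media 1 or Media 2 (adjusted p up to 0.112). The chaperone genes Hsp90b1, Calr and Pdia3, taken here as examples after their values were seen, had log2 fold changes of -0.019, -0.0063 and 0.052 in Hevin. In LPS 0 rose (beside 13.2% of all genes) and 5 fell (14.3%, beside 12.6%). At an unadjusted p under 0.05, 2 were higher, and with voom 0 were. With the block 2 rose and 8 fell (5.71% and 22.9%, beside 21.5% and 22.2% of all genes). Edem1 fell from 152 ± 25.3 to 91.1 ± 23.0 FPKM (-0.75 ± 0.18, adjusted p = 0.00975), and Txndc5, an ER thiol oxidoreductase gene, from 17.3 ± 1.69 to 13.4 ± 1.81 (-0.36 ± 0.11, adjusted p = 0.0281). The Txndc5 call was lost with only the LPS and Media libraries fitted and without Media 1, Media 4, LPS 3 or LPS 4 (adjusted p up to 0.0850). The count of 5 was 2 or 3 without any 1 of the Media libraries or without LPS 1, LPS 3 or LPS 4. It was 9 with quantile normalization, beside 1664 of all genes tested, and 21 without scaling factors, beside 5007. Against LPS, 10 of the 35 were higher in Hevin (28.6%, beside 22% of all genes) and 3 lower (8.57%, beside 19.7%). These were 10 and 7 by the block (beside 29.9% and 28%), and 6 and 4 without number 2 (beside 2118 and 2074 genes). Without scaling factors 24 were higher and 0 lower, beside 5440 and 963 of all genes tested. With quantile normalization 18 were higher and 1 lower, beside 2439 and 1741. The count of 3 was 1 without Hevin 3, Media 3 or Media 4 and 5 without Media 2. Edem2 (0.87 ± 0.15, adjusted p = 0.000587) and the disulfide isomerase gene Pdia4 (0.59 ± 0.07, adjusted p = 5.78e-05) were higher in Hevin than in LPS under all 27 alternatives, whereas Hspa5 and Herpud1 were lower. The difference between this list and Hspa5 or Herpud1 was not tested.

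Other regulators and effectors downstream of ATF4 and DDIT3 had calls in both directions. Of 24 tested, 1 rose (4.17%, beside 4.27% of all genes) and 2 fell (8.33%, beside 3.1%) in Hevin (1 and 10 with the block, beside 10.8% and 10.6% of all genes, 1 and 8 with the block without number 2), and the count of 2 was 5 without Media 1 and 4 without LPS 2. Pmaip1, the gene of the cell death protein NOXA, fell from 58.9 ± 3.09 to 38.9 ± 4.404 FPKM (-0.59 ± 0.09, adjusted p = 0.00188). Nfil3, a basic leucine zipper repressor gene, fell from 117 ± 4.99 to 79.8 ± 5.86 (-0.54 ± 0.11, adjusted p = 0.0114). Vegfa, the vascular growth factor gene, rose from 21.9 ± 3.13 to 47.2 ± 6.02 (1.08 ± 0.14, adjusted p = 0.000717).

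In LPS 10 of the 24 rose (41.7%, beside 13.2% of all genes) and 1 fell (4.17%, beside 12.6%), with a median of 0.28. Without scaling factors 6 rose and 5 fell, beside 728 and 5007 of all genes tested. With quantile normalization 4 rose and 3 fell, beside 1118 and 1664. Ddit4, which restrains mTORC1, rose from 14.9 ± 4.89 to 44.0 ± 12.6 FPKM (1.51 ± 0.28, adjusted p = 0.00234). Jdp2, a basic leucine zipper gene, rose from 26.4 ± 5.86 to 57.2 ± 10.4 (1.10 ± 0.18, adjusted p = 0.00109). Both stayed higher under each scaling. The autophagy receptor gene Sqstm1 was higher as deposited (0.94 ± 0.13, adjusted p = 0.000298) and without factors (0.61) but at -0.023 with quantile normalization. Vegfa fell to 12.5 ± 2.47 (-0.76 ± 0.14, adjusted p = 0.00245). Against LPS, 14 of the 24 were lower in Hevin (58.3%, beside 19.7% of all genes) and 1, Vegfa, was higher (beside 22%). Under quantile normalization 8 were lower and 3 higher, beside 1741 and 2439 of all genes tested. Without scaling factors 10 were lower and 4 higher, beside 963 and 5440. Among the lower were Gdf15, a secreted stress cytokine gene, at 33.8 ± 14.7 against 187 ± 130 FPKM (-2.28 ± 0.41, adjusted p = 0.00101), and Ppp1r15a, which directs eIF2α dephosphorylation, at 91.4 ± 19.3 against 263 ± 94.8 (-1.48 ± 0.25, adjusted p = 0.000631).

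Sensors and translation control genes (24 tested) had 1 higher (4.17%, beside 4.27% of all genes) and 2 lower (8.33%, beside 3.1%) in Hevin. With the block these were 3 and 4 (12.5% and 16.7%, beside 10.8% and 10.6% of all genes). In LPS they had 2 higher and 2 lower (8.33% each, beside 13.2% and 12.6%). With the block these were 5 and 4 (20.8% and 16.7%, beside 21.5% and 22.2%). Against LPS, 5 were higher in Hevin and 4 lower (20.8% and 16.7%, beside 22% and 19.7%), with 7 and 9 by the block (beside 29.9% and 28%). Without scaling factors 15 were higher and 2 lower, beside 5440 and 963 of all genes tested. Creb3l2, an ER-bound transcription factor gene, rose in Hevin from 3.23 ± 0.678 to 14.4 ± 2.597 FPKM (1.86 ± 0.18, adjusted p = 7.08e-05). Creb3, of the same family, fell from 35.6 ± 2.50 to 25.02 ± 0.925 (-0.49 ± 0.10, adjusted p = 0.00869), and Nfe2l1 fell from 111 ± 8.98 to 88.4 ± 4.39 (-0.33 ± 0.08, adjusted p = 0.0199), the latter call being lost without scaling factors, without number 2 or without Hevin 1, Hevin 2, Media 3 or Media 4 (adjusted p up to 0.0777). In LPS Traf2, an adaptor of IRE1, rose (0.65 ± 0.09, adjusted p = 0.000195), and Creb3 (-0.40 ± 0.10, adjusted p = 0.0103) and Eif2ak4, the amino acid sensing kinase GCN2 (-0.39 ± 0.10, adjusted p = 0.0115), fell. Creb3 in LPS lost its call without number 2 (adjusted p = 0.0602). Of this list 13 were lower in LPS without scaling factors, beside 5007 of all genes tested. The messages of the sensors IRE1 (Ern1), PERK (Eif2ak3) and ATF6 (Atf6), named here for their role, had log2 fold changes in Hevin of 0.10, 0.27 and -0.42, and only Atf6 passed with the block (adjusted p = 0.00409).

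Hevin against Media and LPS against Media share the 4 Media libraries, so their values are given side by side and not correlated. On the deposited scale the Hevin mean lay below the Media mean in all 10 genes, while LPS means lay above Media for 7 and below for Ddit3, Trib3 and Xbp1. The ratio of means to Media was 0.535 in Hevin and 1.67 in LPS for Herpud1, and 0.742 and 1.68 for Hspa5. For Ddit3 it was 0.680 and 0.588, so this gene had its lowest mean in LPS.

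By the root mean square distance of centred log2(FPKM + 1) profiles over the 12 libraries, the gene nearest to Trib3 among all 11242 tested was Atf5, another ATF4-family transcription factor gene, at 0.14, and then Snapc5. Nearest to Sesn2 were Mafk (0.10) and Slc7a1 (0.10), nearest to Herpud1 Osgin2 (0.14) and Dusp8 (0.18), and nearest to Hspa5 Sde2 and Top1 (both 0.16). Nearest to Chac1 were Afap1l2 (0.16) and Plaur (0.17), nearest to Asns Cldn12 (0.11) and Stom (0.13), and nearest to Dnajb9 Tfrc (0.15) and Gm13546 (0.18). Atf4 lay nearest to Cldnd1 (0.064) and Fam219a (0.069), Ddit3 to Zfp64 (0.13) and 5031439G07Rik (0.14), and Xbp1 to Anp32b (0.062) and Zhx1 (0.071). Among the 10 themselves the closest were Asns and Chac1 at 0.22 and Atf4 and Sesn2 at 0.16, whereas the member nearest to Xbp1, Atf4, ranked 4503 among all genes by distance from it. These distances describe the libraries and also hold the differences between numbers and groups.

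By GENCODE M21 on GRCm38 the 10 genes lie on 8 chromosomes, so they are not neighbours. Hspa5 spans chr2:34771970-34777547, Herpud1 chr8:94386438-94395377, Atf4 chr15:80255184-80257541, Ddit3 chr10:127290774-127296288 and Xbp1 chr11:5520659-5525893, all on the plus strand. Trib3 (chr2:152337422-152344032), Asns (chr6:7675169-7693254), Sesn2 (chr4:132492032-132510501) and Dnajb9 (chr12:44205559-44210326) lie on the minus strand and Chac1 (chr2:119351229-119354381) on the plus strand. Apart from Ddit3, only Dnajb9 shares exonic bases with another gene, 14 of 2549 with Mir5627 on the opposite strand.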

How the data were processed

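Poly(A) RNA of 12 libraries was sequenced as pairs of 100 bp reads after stranded preparation from 100 ng of RNA, per the labels' protocols. The authors deposited FPKM values per gene symbol; tools in the submitters' processing notes are Bowtie2 2.3.5.1, edgeR 3.30.3, R 4.0.0, Trimmomatic 0.39, FastQC 0.11.7, Subread 1.6.3 and featureCounts, with the build mm10 and without roles. The sources used here name neither the annotation nor a filter, nor whether strand was used. FPKM relates reads to gene length and scaled library size, so library composition enters every value. Low values were whole multiples of 1 read (100% of 14541 rows, within 0.1), which gave reads, depth and the authors' scaling factors.

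A gene was tested where 4 or more libraries reached 1 FPKM (11242 genes). One limma fit (version 3.58.1, R 4.3.3) over all 12 libraries used log2(FPKM + 1), let the prior variance follow the mean level, and adjusted by Benjamini-Hochberg; fold changes on this scale understate low genes. The fit and the read recovery were tested on simulated data. The same numbers 1 to 4 occur in each group, and the deposited column names join them as Group 4 to 7. Deviations from group means correlated by 0.230 to 0.784 in 12 of 12 same-number pairs. Libraries of number 3 also correlated with those of number 4 in other groups, by 0.435 to 0.528. These values lie above LPS 4 with Media 4 (0.230) and Hevin 4 with LPS 4 (0.392). The correlations therefore do not set numbers 3 and 4 apart, and their pairing in the block rests on the column names. The planned fit has no block. Named pathway genes are, per list and comparison, from the 3 called genes with the largest log2 fold change each way, and the rule lets some be left out. Chosen after the values were seen were the fits without scaling factors, voom with the block, and the block without number 2 or without factors. Members and lists were chosen with earlier results of these data known. Sequences are RefSeq's and figures were drawn with matplotlib 3.10.9.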

Additional observations from a re-analysis of the deposited data

Results flagged for a closer look

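In 30 groups of 4 libraries (10 genes in 3 groups) the gap of the highest or lowest library to its neighbour was compared with the group's range, and 4 gaps were above the critical share of 0.829. Chance alone gives about 1 in 20 groups. For Ddit3 in Hevin the gap of library 2 (104 FPKM, the others at most 84.0) was 0.848 of the range. For Xbp1 in Media library 2 (113 FPKM, the others at most 88.8) gave 0.853, and without Media 2 the Xbp1 difference in Hevin stayed uncalled. For Xbp1 in Hevin library 3 (71.0 FPKM, the others at least 78.7) gave 0.884. For Chac1 in LPS library 1 (33.3 FPKM, the others at least 50.8) gave 0.837. Both number 2 libraries come from the set with high neutrophil markers, and the part of these markers was not tested.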

How the results depend on the processing

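Besides leaving out each library, 15 alternatives were run. For the 10 genes in 3 comparisons, 705 values kept direction and side of the threshold, 60 passed newly, 28 no longer passed and 17 changed sign. With the replicate block, counts were 1210 higher and 1196 lower genes for Hevin against Media and 2416 and 2498 for LPS against Media, with 9 of the 10 lower in Hevin, 6 higher and 2 lower in LPS, and 1 higher in Hevin against LPS. With voom and the block these were 1363, 1366, 2438 and 2519, with 9, 7, 2 and 1. With the block without number 2 they were 977, 964, 2245 and 2306, with 8, 6 and 2. In Hevin against LPS 7 of the 10 were lower with the block, with or without voom, and 6 with the block without number 2. With the block and no scaling factors, Hevin against Media had 1425 higher and 1067 lower genes (9 of the 10 lower). In that fit LPS against Media had 6361 lower (3 of the 10). Hevin against LPS had 6406 higher and 1388 lower (3 of the 10 higher and 6 lower). Without factors alone LPS against Media had 728 higher and 5007 lower (0 and 3 of the 10). Hevin against LPS then had 5440 and 963 (1 of the 10 higher and 5 lower). Quantile normalization gave 0 and 4 in LPS, and 1 higher and 4 lower in Hevin against LPS. A filter at 5 FPKM left 1604 genes higher in Hevin against LPS, with fewer genes tested. The cause of the other shifts was not tested.

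Signs changed for LPS against Media under quantile normalization in Atf4 (-0.34), Asns (-0.28), Mthfd2 (-0.083), Slc3a2 (-0.48) and Sqstm1 (-0.023), and without factors, with or without the block, in Asns (-0.12), Sesn2 (-0.021), Dnajb9 (-0.0084) and Slc3a2 (-0.042). For Hevin against LPS they changed under quantile normalization in Atf4 (0.081), Xbp1 (0.22) and Trib3 (0.16), without factors, with or without the block, in Xbp1 (0.20), Trib3 (0.26) and Syvn1 (0.10), and without Hevin 1 in Trib3 (0.041, with -0.15 to 0.041 over all libraries left out). Without Media 2, Dnajb9 in Hevin against Media was at 0.011 (-0.35 to 0.011). Leaving out 1 library gave 307 to 545 higher and 203 to 390 lower genes for Hevin against Media (1 to 6 of the 10 lower), 1172 to 1476 and 989 to 1530 for LPS against Media (3 to 4 and 1 to 2 of the 10), and 2006 to 2486 and 1837 to 2221 for Hevin against LPS (6 of the 10 lower each time). The block changed no other call of the 10 genes than those given. The planned quasi-likelihood count tests were not run, because the deposited values are not counts; voom on recovered reads stood in. Depth is not limiting for these genes, and 4 libraries per group limit the precision.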
